A study of Mus musculus with 10 samples.

Results

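The Wnt ligands, their receptors and their secreted modulators were examined in normal mouse heart muscle. Members were chosen by name, as the array's genes with a Wnt, Fzd, Sfrp, Dkk or Rspo symbol followed by a digit, and Frzb, Wif1, Lrp5, Lrp6 and Axin2. This gave 47 of the 22911 named genes on the array. They were measured by 59 of its 56605 probes, and 1 of them, Fzd10os, is a non-coding transcript that carries a receptor's name. The study divided hearts of C57BL/6N mice into ventricular septum, left ventricle (LV) and right ventricle (RV), and hybridised total RNA of each to 1-colour Agilent arrays, with 4 RV, 3 LV and 3 septum samples. All 3 regions came from the same inbred strain, the labels name no operation, allele or treatment, and age is not given in the sources used here.

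Wnts are secreted glycoproteins that bind Frizzled (Fzd) receptors at the surface of a neighbouring cell. With the co-receptors Lrp5 and Lrp6 they stabilise β-catenin, which enters the nucleus with TCF/LEF factors and switches on targets such as Axin2, while other Wnts act without β-catenin on cell polarity and calcium. Secreted frizzled-related proteins (Sfrp, Frzb) and Wif1 bind Wnts outside the cell, classical Dickkopf proteins (Dkk) block the co-receptors, and R-spondins (Rspo) raise the number of receptors at the surface. In the heart the pathway is known for its part in development and, in the adult, in the response of fibroblasts and muscle to injury.

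Levels below are log2 signals relative to each array's 75th percentile, so 0 is the level of a bright but not exceptional probe, and levels are compared between samples within a probe only. Probes entered the test if every sample of some region read well above the local background, which kept 30234 probes and 14650 named genes. Between 53.7% and 64.0% of the probes on an array passed this mark, with 0 saturated. A gene was called at an adjusted p of at most 0.05 (limma, Benjamini-Hochberg over all tested probes) by its brightest tested probe. The arrays lay on 2 slides, with replicates 1 and 2 of each region on slide 1, and 2 RV, 1 LV and 1 septum sample on slide 2. The labels do not say whether samples came from separate animals, so p-values measure only the spread between these samples. All 8 cardiomyocyte markers were tested, above background, and none was called in any comparison, with a summed log2 level between 11.9 and 12.2 in every sample of the 3 regions.

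The upstream sequences of called members are shown first, so that the windows before their start sites stand beside their values. The set of RefSeq (GRCm38.p6) start site windows used here gave windows for 30 members, including 6 of the 10 called by any probe. Member windows on 1 chromosome were left out, so a member without a window here need not lack a RefSeq start site. Each sequence is the 250 bases before the start, 5′ to 3′ on the gene's strand, with motif matches on either strand in capitals. These are the TCF/LEF core CTTTGA, the TATA box TATAAA and the GC box GGGCGG. Wif1 lies at chr10:121033754-121034003 (plus strand), Sfrp2 at chr3:83766071-83766320 (plus), Wnt2 at chr6:18030446-18030695 (minus), Rspo1 at chr4:124986180-124986429 (plus), Sfrp5 at chr19:42202253-42202502 (minus) and the first of the pair of Wnt11 start windows at chr7:98834862-98835111 (plus).
Wif1: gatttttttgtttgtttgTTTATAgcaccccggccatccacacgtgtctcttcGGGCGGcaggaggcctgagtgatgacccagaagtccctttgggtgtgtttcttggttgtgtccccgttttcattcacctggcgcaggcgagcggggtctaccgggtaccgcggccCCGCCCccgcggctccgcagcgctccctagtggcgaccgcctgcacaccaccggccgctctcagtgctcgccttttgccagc
Sfrp2: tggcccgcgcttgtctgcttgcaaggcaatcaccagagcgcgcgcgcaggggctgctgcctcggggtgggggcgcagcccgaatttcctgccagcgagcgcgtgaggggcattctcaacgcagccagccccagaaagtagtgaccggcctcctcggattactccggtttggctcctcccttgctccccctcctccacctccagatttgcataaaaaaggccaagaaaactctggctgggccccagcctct
Wnt2: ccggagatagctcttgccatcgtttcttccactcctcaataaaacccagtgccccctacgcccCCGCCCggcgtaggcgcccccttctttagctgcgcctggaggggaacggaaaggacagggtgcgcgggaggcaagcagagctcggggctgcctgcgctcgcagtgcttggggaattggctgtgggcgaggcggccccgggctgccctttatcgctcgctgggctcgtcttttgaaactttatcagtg
Rspo1: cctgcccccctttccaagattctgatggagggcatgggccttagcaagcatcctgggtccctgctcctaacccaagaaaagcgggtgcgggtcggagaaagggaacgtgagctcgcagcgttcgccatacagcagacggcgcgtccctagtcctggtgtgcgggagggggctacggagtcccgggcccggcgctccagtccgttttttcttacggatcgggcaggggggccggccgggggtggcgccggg
Sfrp5: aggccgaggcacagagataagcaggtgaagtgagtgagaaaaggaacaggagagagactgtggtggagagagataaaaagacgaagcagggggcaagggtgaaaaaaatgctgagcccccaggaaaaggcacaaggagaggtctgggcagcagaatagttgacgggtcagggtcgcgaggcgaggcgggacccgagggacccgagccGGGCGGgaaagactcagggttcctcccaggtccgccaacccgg
Wnt11: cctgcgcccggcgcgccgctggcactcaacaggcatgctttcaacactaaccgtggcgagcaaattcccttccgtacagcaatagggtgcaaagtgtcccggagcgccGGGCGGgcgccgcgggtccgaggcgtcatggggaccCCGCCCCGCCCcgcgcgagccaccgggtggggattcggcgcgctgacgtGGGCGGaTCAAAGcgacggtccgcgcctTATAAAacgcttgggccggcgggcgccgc
The Wif1 window held a TATA box on the minus strand and 2 GC boxes, the Wnt2 and Sfrp5 windows held 1 GC box each, and the Sfrp2 and Rspo1 windows held none of the 3 motifs. The Wnt11 window held 1 TCF/LEF core and 4 GC boxes, an adjoining pair of which overlap by 1 base, beside a TATA box, while the other Wnt11 window, at chr7:98838595-98838844, held none of the 3. The TCF/LEF core was in none of the other 5 windows shown. Of all 33 member windows, 5 held the TCF/LEF core, against 13.83% of all 32851 windows of the set, from which no chromosome was left out. A GC box was in 24 of the 33, against 32.74% of all windows, and a TATA box in 5, against 12.37%.

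Of the 47 members, 31 were tested and 26 of these were well above background on all 10 arrays. By role, 10 of 19 ligands, 8 of 10 receptors, both co-receptors, all 6 secreted Wnt binders, 1 of 4 Dickkopf genes, 2 of 4 R-spondins and Axin2 passed. The 16 untested members were Wnt2b, Wnt3, Wnt3a, Wnt6, Wnt7a, Wnt8b, Wnt10a, Wnt10b, Wnt16, Fzd5, Fzd10, Dkk1, Dkk2, Dkk4, Rspo2 and Rspo4, and 8 of them were above background on no array. Wnt6 was above background on 6 arrays, 3 of them RV, and Fzd5 on 4. No member was above background on every array of 1 region and on no array of another. Wnt genes that adjoin each other on a chromosome differed in detection by their probes. Wnt1 was above background on 10 arrays and its neighbour Wnt10b on 1, and Wnt9a on 10 and Wnt3a on 0. Wnt9b was above background on 9 arrays and Wnt3 on 0, and Wnt6 on 6 and Wnt10a on 0. Detection also differed between probes of the same gene, as Wnt5a and Axin2 each had a probe above background on 10 arrays and another on 0. These pairs therefore do not compare levels between genes.

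Against the LV, 6 members were called higher in the RV, Wif1, Dkk3, Sfrp2, Sfrp4, Wnt2 and Wnt5a, and 1, Fzd8, was called lower. Of all genes tested, 3.14% were called higher and 1.84% lower. Against the septum, Rspo1 and Wnt5a were called higher in the RV and Sfrp5 lower, where 1.68% of all genes were called higher and 1.02% lower. Between the septum and the LV no member was called (limma), where 0% of all genes were. At an unadjusted p under 0.05 (limma), 9 of the 31 members (29.0%) and 427 of the 14650 genes (2.91%) differed between septum and LV, and 8 of the 9 (Dkk3, Frzb, Sfrp2, Sfrp4, Sfrp5, Wif1, Wnt2 and Wnt9b) had the higher mean in the septum, with Rspo1 the other way. The analysis of variance with Tukey correction that the methods name gave 6 members unadjusted, where 1.56% of all genes were called, and 1, Wif1, after Benjamini-Hochberg adjustment, where 0.642% were. The F test for any difference among the 3 regions called 6 members, against 3.67% of all genes. The counts changed when single arrays were left out. Without LV replicate 1 only Wif1 remained of the 7 members called between RV and LV, and without any other single array 3 to 5 members were called. The share of all genes called also went down, from 4.98% to between 1.66% and 4.19%. Against the septum, 1 or 2 members were called without any single array, where the share of all genes was 0.53% to 2.43%, against 2.70% with all arrays.

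**Figure D1:**
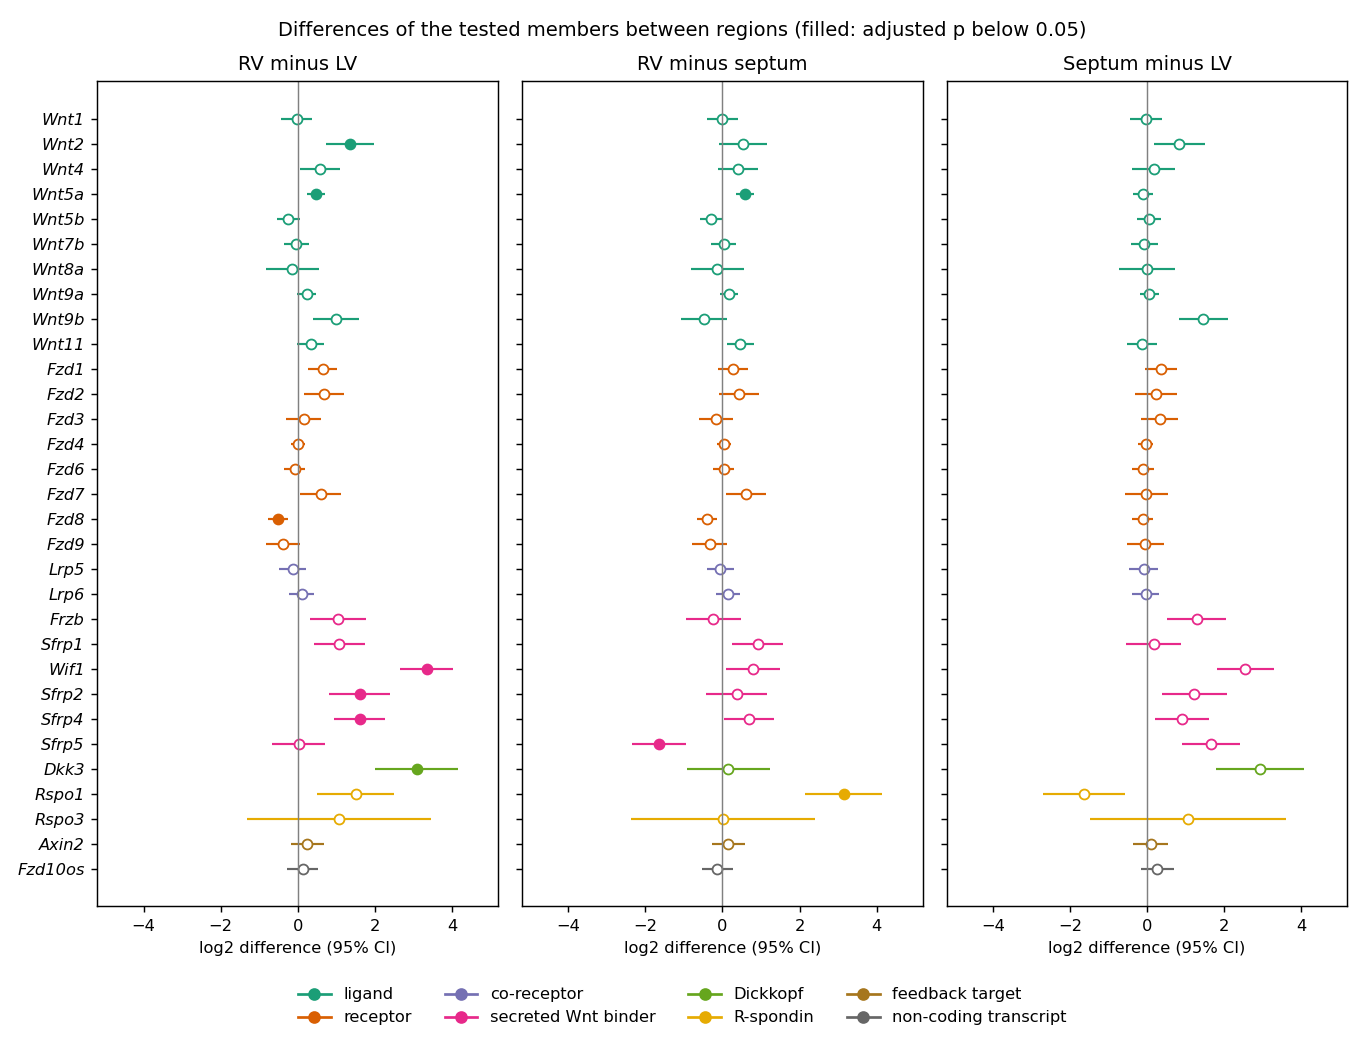
Differences in log2 level between regions for the 31 tested members, grouped by role, with 95% confidence intervals (bars), n = 4 RV, 3 LV and 3 septum. Filled points passed an adjusted p of 0.05: 7 members for RV against LV, 3 for RV against septum and none for septum against LV.

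Over the 26 members above background on all arrays, the median RV minus LV difference was 0.24, and 69.2% were higher in the RV. The median over all 13634 such genes was -0.06, with 37.5% higher. For RV minus septum the medians were 0.15 and -0.04, and for septum minus LV 0.02 and -0.02.

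Of the 9 members called by their brightest probe in either comparison, 5 encode secreted binders or Dickkopf proteins, with Sfrp5 called as lower in the RV. Of the 31 tested members, 6 were secreted binders and 1 was a Dickkopf gene. Wif1, the Wnt inhibitory factor, had the largest RV to LV difference of any member. Its levels were 1.73, 1.41, 2.41 and 1.59 in the RV, -1.26, -1.90 and -1.51 in the LV, and 1.41, 0.30 and 1.27 in the septum. All RV and septum samples lay above all LV samples, and the lowest RV and the highest septum value both rounded to 1.41. The RV was 10.1-fold above the LV (log2 difference 3.34, SE 0.31, adjusted p = 0.00236, limma). The call held in all 10 fits that left out 1 array, at 3.13 to 3.49, and the difference was 3.15 on slide 1 and 3.51 on slide 2. The septum was 5.86-fold above the LV (log2 difference 2.55, SE 0.33), which did not pass (adjusted p = 0.128, limma) except when septum replicate 2, the lowest of the 3, was left out.

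Dkk3, a secreted Dickkopf relative that differs from the classical co-receptor blockers, followed the same order. Its brighter probe read 2.59, 2.55, 3.86 and 3.22 in the RV, -0.26, -0.61 and 0.79 in the LV, and 3.71, 2.03 and 2.98 in the septum. RV and septum overlapped, and both lay above every LV sample. The RV was 8.47-fold above the LV (log2 difference 3.08, SE 0.48, adjusted p = 0.0100, limma), and a second probe gave 3.04 (adjusted p = 0.0204, limma). Without LV replicate 1 the brighter probe lost its call, at a difference of 2.97 (adjusted p = 0.0507, limma). The septum minus LV difference of 2.93 (SE 0.51) had an adjusted p of 0.265 (limma).

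The secreted frizzled-related proteins did not all share this order. Sfrp2, which fibroblasts secrete, read -0.88, -1.02, 0.48 and 0.12 in the RV, -2.19, -1.71 and -1.88 in the LV, and -0.62, -1.06 and -0.41 in the septum. All LV samples were lower than all others, and the difference of 1.60 (SE 0.35, adjusted p = 0.0409, limma) was 1.002 on slide 1 and 2.18 on slide 2. Its call held in 2 of the 10 fits that left out 1 array, those without RV replicate 1 or 2, at 1.33 to 1.83 over all 10. Sfrp4 read -3.13, -3.27, -2.48 and -2.85 in the RV, -4.33, -4.96 and -4.31 in the LV, and -3.35, -3.23 and -4.29 in the septum. Only 1 of 3 LV and 2 of 3 septum samples were above background for Sfrp4, so its RV minus LV difference of 1.60 (SE 0.29, adjusted p = 0.0195, limma) includes LV values not above background. Sfrp4 entered the test through the RV, the region where it is high, so its place among the 6 higher members follows in part from the filter. With only probes above background on all 10 arrays, Sfrp4 and Wnt2 were not tested, and the 4 higher members were Dkk3, Sfrp2, Wif1 and Wnt5a, where 5.18% of all genes were called in either direction. With normexp background correction the Sfrp4 difference was 0.53 (adjusted p = 0.0343, limma). It was not called without LV replicate 1, LV replicate 2 or RV replicate 4, at 1.39 to 1.71 over all 10 such fits. Sfrp1 read -1.54, -0.08, -1.21 and -1.06 in the RV, -2.28, -1.79 and -2.07 in the LV, and -1.70, -1.86 and -2.09 in the septum. All its RV samples were above all others, with differences of 1.08 over the LV and 0.91 over the septum. Frzb, a relative of the Sfrp proteins, read -1.59, -1.73, -0.27 and -0.90 in the RV, -2.29, -2.15 and -2.05 in the LV, and -0.69, -1.25 and -0.70 in the septum. Sfrp1 and Frzb (1.04 over the LV) were higher in the RV than the LV without overlap, but at adjusted p-values of 0.0808 and 0.108 (limma). Frzb exceeded the LV by 1.28 in the septum, alike in both of its probes, neither of which was called (adjusted p = 0.826 and 0.99996, limma).

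Sfrp5 took another order, with the septum apart. It read -0.67, -1.28, -1.78 and -1.60 in the RV, -1.25, -1.47 and -1.34 in the LV, and 0.85, -0.37 and 0.44 in the septum. Every septum sample was above every ventricular sample. The RV was lower than the septum by 1.64 on the log2 scale (difference -1.64, SE 0.31, adjusted p = 0.0320, limma), and the septum exceeded the LV by 1.66 (adjusted p = 0.361, limma). The RV to septum call held only without RV replicate 1 or septum replicate 2 among the fits that left out 1 array, at -1.98 to -1.37 over all 10. The RV minus LV difference was 0.02, with a 95% interval of -0.68 to 0.71.

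**Figure D2:**
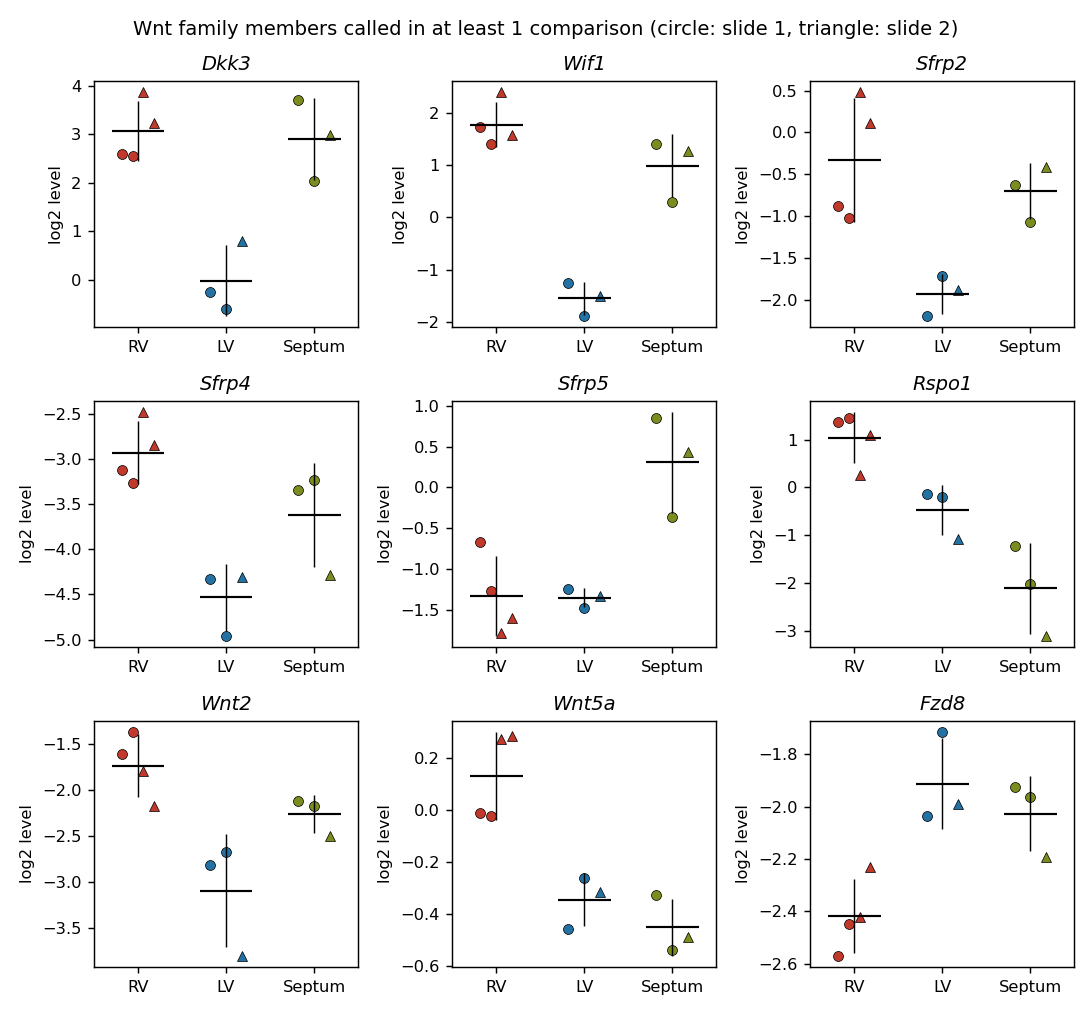
Log2 level by array of the 9 members called in any comparison by their brightest probe, with the mean (line) and SD (bar) of 4 RV, 3 LV and 3 septum samples. Wif1 and Dkk3 are high in RV and septum, Rspo1 is highest in the RV and lowest in the septum, and Sfrp5 is high in the septum.

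Rspo1, an R-spondin and so an amplifier of Wnt signals, was highest in the RV and lowest in the septum. It read 1.36, 1.44, 0.26 and 1.09 in the RV, -0.14, -0.19 and -1.07 in the LV, and -1.22, -2.00 and -3.10 in the septum. The 3 regions did not overlap. The RV was 8.83-fold above the septum (log2 difference 3.14, SE 0.45, adjusted p = 0.0113, limma), and the call was lost only without septum replicate 2 among the fits that left out 1 array, at 3.19 (adjusted p = 0.0546, limma). The RV minus LV difference of 1.503 had an adjusted p of 0.0988 (limma). Rspo3, another R-spondin, lay between -2.30 and -2.86 in all RV and septum samples, whereas LV replicate 2 read -0.20 and the other LV samples -5.40 and -5.38. Its differences were 1.07, 0.01 and 1.06 with wide intervals, and it was called higher than the LV in both the RV and the septum when LV replicate 2 was left out. The LV samples that then remain were not above background, so this call is not a measured difference.

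Of the ligands, Wnt2, which signals mainly through β-catenin, read -1.61, -1.37, -1.79 and -2.17 in the RV, -2.81, -2.67 and -3.80 in the LV, and -2.12, -2.17 and -2.50 in the septum. LV samples lay below all others, and the RV exceeded the LV by 1.36 (SE 0.28, adjusted p = 0.0301, limma). LV replicate 3 was not above background, and the call was lost without it and without LV replicate 1, RV replicate 1, 2 or 3, at 1.01 to 1.57 over the 10 fits. With normexp background correction it was 0.81 (adjusted p = 0.0310, limma). Wnt5a, the best known ligand that acts without β-catenin, read -0.01, -0.03, 0.27 and 0.28 in the RV, -0.46, -0.26 and -0.32 in the LV, and -0.33, -0.54 and -0.49 in the septum. All RV samples were above all others, by 0.48 over the LV (SE 0.11, adjusted p = 0.0433, limma) and 0.58 over the septum (adjusted p = 0.0295, limma), small steps that held in 0 and 4 of the 10 fits without 1 array. A second Wnt5a probe was not above background on any array. Wnt11, another ligand of this kind, passed by its dimmer probe only, at 0.47 over the LV (adjusted p = 0.0274, limma) and 0.44 over the septum (adjusted p = 0.0457, limma), calls that held in 4 and 0 of the 10 fits without 1 array. Its brighter probe gave 0.33 and 0.46 at adjusted p-values of 0.283 and 0.213 (limma). Wnt9b was 1.46 higher in the septum than in the LV and 0.98 higher in the RV, with adjusted p-values of 0.352 and 0.0759 (limma).

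Ligands that showed little change included Wnt1, Wnt5b and Wnt9a. Wnt1 differed by 0.03 or less between any 2 regions, but read 0.39 to 0.47 on slide 1 and 0.65 to 0.97 on slide 2. Wnt5b was lower in the RV by 0.24 against the LV and 0.29 against the septum, alike in both probes and short of the threshold (adjusted p = 0.355 and 0.368, limma). Wnt9a differed by 0.23 between RV and LV (adjusted p = 0.276, limma). Wnt8a read -2.52 to -2.16 on slide 1 and -3.19 to -2.88 on slide 2, with no more than 0.14 between any 2 regions. Wnt7b differed by -0.04 between RV and LV, and a dimmer probe gave -0.22. Wnt4, best known from kidney and ovary development, differed by 0.58 between RV and LV (adjusted p = 0.202, limma), with an RV range of -2.11 to -1.23 that split by slide.

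Among the receptors, Fzd8 was called lower in the RV than the LV. It read -2.57, -2.45, -2.42 and -2.23 in the RV, -2.03, -1.71 and -1.99 in the LV, and -1.93, -1.96 and -2.19 in the septum. The groups did not overlap with the RV, and the difference of -0.51 (SE 0.12, adjusted p = 0.0446, limma) passed in 1 of the 10 fits without 1 array, at -0.57 to -0.41. Without RV replicate 3, Fzd9 was called lower and Fzd8 was not. Scaling to the array median, which kept the direction, also ended this call. Fzd4, a receptor abundant in vessels, was level at 2.90 to 3.16 over all 10 arrays, with an RV minus LV difference of 0.01 and a 95% interval of -0.18 to 0.19. Fzd1, Fzd2 and Fzd7 were higher in the RV than the LV by 0.64, 0.67 and 0.59, at adjusted p-values of 0.0741, 0.146 and 0.199 (limma). Fzd3, Fzd6 and Fzd9 differed by 0.16, -0.08 and -0.38, and the transcript Fzd10os by 0.13, none below an adjusted p of 0.339 (limma). The co-receptors Lrp5 and Lrp6 differed by -0.14 and 0.10, although a dimmer Lrp6 probe read -0.45 in LV replicate 2 against -2.14 to -1.07 in every other sample. Axin2, the feedback target of the β-catenin branch, read between -3.28 and -2.44 in all samples by its brighter probe. This probe gave differences of 0.25, 0.15 and 0.10 (adjusted p = 0.530, 0.800 and 0.99996, limma). A second Axin2 probe was not above background on any array.

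The arrays of one slide moved together, so differences were also computed within slides and with blocks. With slide as a block, 15 members were called for RV against LV, where 21.3% of all genes were, and 5 for RV against septum, where 11.1% were. Samples that share a replicate number also deviated together, and with replicate as a block, in which RV replicate 4 has no partner, 13 members were called (17.9% of all genes) and 5 (8.7%). The block pairs RV replicate 3 with LV and septum replicate 3 (correlation of deviations 0.43 and 0.44), although RV replicate 4, on the same slide, deviated with them at 0.57 and 0.58. All 7 and all 3 members called without a block remained called under both. For RV against LV, both blocks added Fzd1, Fzd7, Rspo1, Sfrp1, Wnt4 and Wnt9b as higher in the RV, and the slide block also Frzb and Fzd2. The replicate block added Fzd7 (higher) and Fzd8 (lower) to the RV against septum calls, and the slide block made Wnt2 and Fzd7 higher there.

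**Figure D3:**
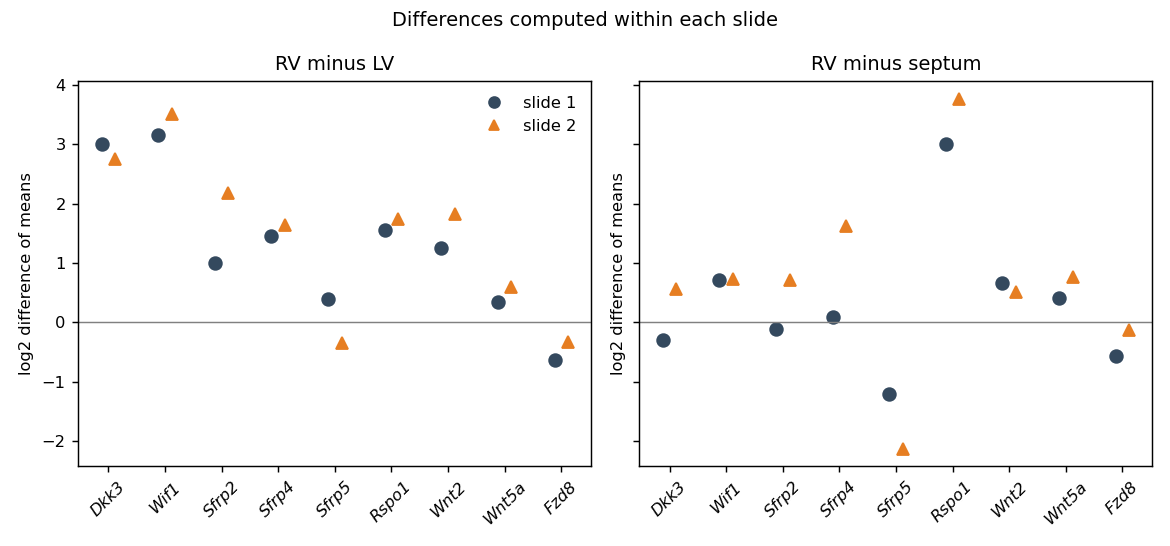
RV minus LV and RV minus septum differences of log2 means within slide 1 (circles, 2 against 2 samples) and slide 2 (triangles, 2 against 1) for the 9 called members. Every called difference keeps its sign on both slides. Wif1 is at 3.15 and 3.51 against the LV and Rspo1 at 3.01 and 3.77 against the septum. The calls came from these same arrays, so the signs are no separate test of them.

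Of the genes further along the pathway, Nkd1 alone was called by its brightest probe. Of 61 listed genes for Wnt secretion, receptor turnover, planar polarity, β-catenin control and targets, 52 were tested. Nkd1 was thus 1 of 52 for RV against LV, where 3.14% of all genes were called higher and 1.84% lower. Nkd1, an inhibitor of Dishevelled induced by Wnt, was higher in the RV than the LV by 1.40 (adjusted p = 0.0415, limma). Its call held in 2 of the 10 fits without 1 array, at 1.15 to 1.57. No other gene was called in any comparison. Between septum and LV, 2 of the 52 passed an unadjusted p of 0.05 (limma), against 2.91% of all genes. Nkd1 read -1.63, -1.45, -0.36 and -0.97 in the RV, -2.78, -2.53 and -2.19 in the LV, and -1.56, -2.22 and -1.41 in the septum. All LV samples were below all RV samples, and LV and septum overlapped by 1 sample. The Wnt carrier Wls (0.32, adjusted p = 0.0513) and the Wnt-cleaving protease Trabd2b (-0.51, adjusted p = 0.0595) missed the threshold (limma). Kremen1, a Dickkopf receptor, differed by -0.58 by its brightest probe (adjusted p = 0.170, limma), although another probe passed at -0.61 (adjusted p = 0.0280, limma). Against the septum, the largest differences were 0.74 for the polarity cadherin Celsr1, 0.63 for Nkd1 and -0.62 for the R-spondin receptor Lgr4, none below an adjusted p of 0.250 (limma). Between septum and LV they were -1.15 for Celsr1, 1.01 for Apcdd1 and 0.77 for Nkd1. The median RV minus LV difference of the 50 genes above background on all arrays was -0.04.

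Markers of other cell types differed along with these members. Beside the marker counts below, 3.14% of all genes were called higher in the RV than the LV and 1.68% than the septum. In whole tissue, fewer cells of a type and less RNA per cell cannot be told apart. For Rspo1, all 10 mesothelial markers, of the sheet that covers the heart, were tested, and 9 were called higher in the RV than the septum. All 10 had the higher mean in the RV, against the septum and against the LV. Their summed log2 level was 3.37 to 4.80 in the RV, 2.44 to 3.15 in the LV and 0.95 to 2.14 in the septum, and 1 of the 10 was called between RV and LV. For Wif1, Dkk3 and Sfrp2, a list of cartilage-like and valve markers had 6 of 8 genes tested, Acan and Hapln1 not. Of these, 3 (Comp, Fmod and Cnmd) were called higher in the RV than the LV. Chad and Col2a1 of this list differed by 2.16 and 1.12 and Sox9 by -0.05, none of them called. The sum of the list was 2.58 to 4.57 in the RV, 1.18 to 1.60 in the LV and 2.59 to 4.0 in the septum. Of 10 fibroblast markers, 3 were called higher in the RV than the LV and 1 than the septum. All 10 had the higher mean in the RV in both comparisons. The fibroblast sums were 8.66 to 8.87 in the RV, 8.03 to 8.39 in the LV and 8.32 to 8.58 in the septum. For Sfrp5, 5 of 6 atrial markers were tested, Bmp10 not, none was called, and the sums were 4.68 to 6.75 in the RV, 6.68 to 7.23 in the LV and 6.78 to 9.19 in the septum. The sums and the single markers differ in order between RV and LV, since 3 of the 5 had the higher mean in the RV (median difference 0.25) while Nppa differed by -2.21. All 5 had the higher mean in the septum than in the RV, with a median RV minus septum difference of -1.80. Of 8 adipocyte markers, 4 were called higher in the RV than the LV and 2 than the septum, and of 7 tested neural markers 2 and 2. No gene of the endothelial, macrophage or smooth muscle lists was called. All 8 macrophage markers had the higher mean in the RV in both comparisons (median differences 0.31 and 0.30). Of the endothelial markers 4 of 8 did, and of the smooth muscle markers 5 of 8. The macrophage sum was 5.51 to 5.65 in the RV, 5.10 to 5.39 in the LV and 4.94 to 5.43 in the septum. The adipocyte sum was 6.96 to 7.26 in the RV, 7.17 to 7.45 in the LV and 7.12 to 7.42 in the septum, and the neural sum 2.90 to 3.20, 2.49 to 2.89 and 2.96 to 3.34. Here too the adipocyte sum and single markers differ in order. Fabp4 and Plin4, the brightest of that list, differed by -0.24 and -0.19 between RV and LV. Adipoq, Cidec, Plin1 and Retn, the 4 called, differed by 3.26 to 4.77, and 5 of the 8 had the higher mean in the RV (median difference 1.70). The marker lists were chosen with earlier results of these data known, and the part of these cell types in the results was not tested.

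**Figure D4:**
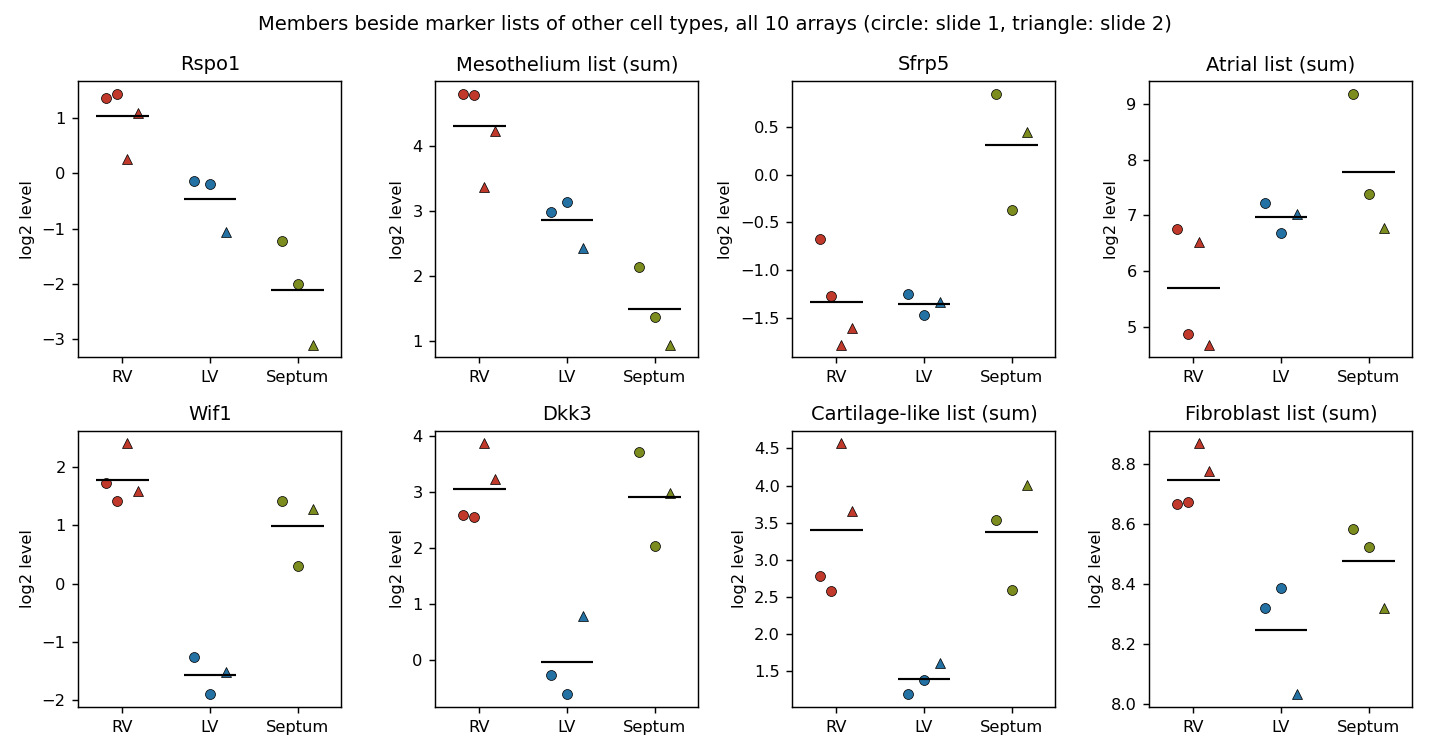
Log2 level by array of 4 members and log2 summed level of 4 marker lists, with region means (lines). Rspo1 and the mesothelium list are both highest in the RV and lowest in the septum, and Wif1, Dkk3 and the cartilage-like list are low in the LV.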

How the data were processed

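Total RNA from RV, LV and septum was labelled with Cy3 and scanned on Agilent arrays, and the authors extracted spot intensity values with Agilent Feature Extraction 11.5.1.1, which subtracted background. They also deposited a log2 value table, made with GeneSpring, which matched the log2 intensity minus each array's 75th percentile within 0.05 after centring for 100% of 56605 probes, with array medians from -3.14 to -2.90. The deposited table holds no columns of samples outside the series. Here, control and outlier spots were left out, spots of a probe averaged, and log2 gProcessedSignal scaled to each array's 75th percentile (514 to 706). The 1 RV file re-saved with rounded signals was kept. limma 3.58.1 (R 4.3.3) fitted 3 region means over all 10 arrays, and the methods' analysis of variance with Tukey correction was an alternative, since limma pools the spread across probes (prior degrees of freedom 2.46). The mean signal column for the normexp correction was not in the files, so the median signal was used (offset 50). Probe names came from RefSeq accessions through GRCm38.p6, which named 32994 probes. Samples with a shared replicate number deviated together in all 9 pairs (correlation 0.36 to 0.64), while same-slide samples of other numbers gave 0.09 to 0.58, the highest of them RV replicate 4 with LV and septum replicate 3. A slide with 1 LV and 1 septum sample assumes that these vary like the RV pair. Tests were run on simulated arrays that vary independently. These lack the shared deviations of slide and replicate, so they do not show how the tests fare with them. Array number limits the precision. The members, gene lists and marker lists were chosen with earlier results of these data known. Named with values were members called by any probe, the 3 with the largest difference in each comparison, the 3 with the highest level in each role, Axin2, and other pathway genes by count.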

Additional observations from a re-analysis of the deposited data

How the results depend on the processing

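Counts of called members are followed here by the share of all genes called under the same setting, since that share moves too. Wif1 kept its RV over LV call under all 14 other settings and all 10 fits without 1 array. The 7 members called between RV and LV (4.98% of all genes) became 4 with array median scaling (2.85%), 2 with no filter on dim probes (0.729%), 15 with slide as a block (21.3%), 4 on slide 2 only (1.39%), 13 with the replicate block (17.9%), 1 by the adjusted analysis of variance (3.29%), and 1 to 5 without 1 array (1.66% to 4.19%). The 3 between RV and septum (2.70%) became 0 with no filter (0.336%), 5 with slide as a block (11.1%), 1 on slide 1 only (2.12%), 1 on slide 2 only (0.649%), 5 with the replicate block (8.7%), 0 by the adjusted analysis of variance (3.26%), and 1 to 2 without 1 array (0.53% to 2.43%). The 0 between septum and LV (0%) became 6 by the unadjusted (1.56%) and 1 by the adjusted analysis of variance (0.642%). Without 1 array it was 0 to 1 (0% to 0.0205%). The 6 of the F test (3.67%) became 1 with no filter (0.506%), 14 with slide as a block (15.8%), 2 on slide 1 only (1.59%), 2 on slide 2 only (1.08%), 13 and 1 by the unadjusted (19.5%) and adjusted analysis of variance (3.35%), and 1 to 4 without 1 array (1.33% to 3.06%). The 1 other pathway gene between RV and LV (4.98%) became 0 with median scaling (2.85%), no filter (0.729%) or slide 2 only (1.39%). There were 2 with quantile normalization (4.16%), the detected-probe percentile (4.91%) or the filter for all 10 arrays (5.18%). Slide 1 only (3.37%) and the mean of a gene's probes (5.17%) also gave 2. Normexp gave 3 (4.88%), slide as a block 13 (21.3%) and the replicate block 9 (17.9%). The unadjusted analysis of variance gave 5 (16.1%), and fits without 1 array 0 to 1 (1.66% to 4.19%). Between RV and septum, where 0 was called (2.70%), normexp gave 1 (2.78%), slide as a block 8 (11.1%), slide 1 only 2 (2.12%) and the replicate block 9 (8.7%). The analysis of variance gave 3 unadjusted (11.3%) and 1 adjusted (3.26%). Axin2, never called, changed sign in 3 fits without 1 array: RV minus septum ranged from -0.021 (without septum replicate 2) to 0.298, and septum minus LV from -0.0475 (without septum replicate 3; -0.0301 without LV replicate 1) to 0.271. The cause of these changes was not tested. With no filter, more probes enter the adjustment. All members called without it remained called under the replicate block. Probes not above background limit what dim members can show.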
